A study of Lactuca sativa with 32 samples.

Results

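The genes described here are 150 lettuce genes whose leaf messenger RNA was highest behind the FTAZ:PCBM filter in the experiment with adjusted light intensity. They were taken from the 43717 genes of the deposited count tables, and 31045 of those were detected, with 1 or more reads over the 32 samples. Counts were scaled to a sum of 1000000 per sample (CPM), and levels are log2(CPM + 0.1) unless CPM is written. A gene was eligible when its mean over the 16 plants of that experiment was 1 CPM or more, which left 20306 genes. It was kept when FTAZ:PCBM, of the 4 covers, stood farthest from the mean of the other 3, and when each of its 4 plants lay above all 12 other plants. Of the eligible genes, 581 met this. A further condition would have dropped genes whose plants of the other experiment all lay on 1 side, and it dropped 0. The 150 genes with the largest difference are called the members. They were thus chosen by their measured CPM in the 16 plants of that experiment, so their levels there are a description, with no test. Tests compared only the 16 plants of the other experiment, but their estimate of the spread was shared over all 32 samples.

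Red oak leaf lettuce (Lactuca sativa), a lettuce with red lobed leaves, was lit by incandescent and ceramic metal halide lamps. Each box held 16 plants, with a transplant harvest at 3 weeks and a final harvest at 5 weeks. Light passed through an organic photovoltaic (OPV) filter, a semi-transparent film of the blend that absorbs light in an organic solar cell, or through clear glass as the control. In the PAR controlled (PC) experiment intensity was adjusted, and the 4 groups were PC FTAZ:PCBM, PC FTAZ:IT-M, PC PTB7-Th:IEICO-4F and PC control. In the height controlled (HC) experiment it was not adjusted, and the groups were HC FTAZ:PCBM, HC FTAZ:IT-M, HC PTB7-Th:IEICO-4F and HC control. FTAZ and PTB7-Th are polymers that donate electrons, PCBM is a fullerene acceptor, and IT-M and IEICO-4F are acceptors without a fullerene. Each group holds leaf RNA of 4 individual plants, and the labels name no genotype beyond the lettuce type. The labels do not say at which harvest RNA was taken, nor that a cover had more than 1 box, so filter and box cannot be told apart. In whole leaf tissue, fewer cells of a type and less RNA per cell cannot be told apart either.

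PAR, photosynthetically active radiation, is the part of the spectrum that drives photosynthesis. Plants read the colour of light with phytochromes, which respond to red and far-red light, and with cryptochromes and phototropins, which respond to blue light. These receptors and the chloroplasts change the expression of many nuclear genes, among them those for pigments, photosynthesis and growth. Red lettuces owe their colour to anthocyanins, pigments whose synthesis depends on light. The tables give identifiers with no product names, so no member is assigned a function here.

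Total counts ranged from 47289413 to 48764530 per sample, and 3 counts, taken as the smallest level that can be shown, correspond to 0.0615 to 0.0634 CPM, which covers counting error only. No member came near that floor, the fewest reads of any member in any sample being 23. The libraries of PC FTAZ:PCBM replicates 2 and 3 carry a letter in their library number, whose meaning is not given. In PC FTAZ:PCBM the level of a gene also went with its exonic length over all eligible genes. For the slope on log2 length, the level was taken relative to each gene's mean over all 32 samples. This slope was 0.13 ± 0.07 in PC FTAZ:PCBM, −0.01 ± 0.07 in PC FTAZ:IT-M, −0.04 ± 0.03 in PC PTB7-Th:IEICO-4F and −0.04 ± 0.06 in PC control (SD, n = 4 each). Values that bear on the members stand beside the results below.

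Members stood 0.51 to 1.37 above the mean of the other 3 PC groups on the log2 scale, with a median difference of 0.64, and 8 of them reached 1. Their median level, taken in each plant relative to the mean of the 12 other PC plants, was 0.72, 0.79, 0.63 and 0.43 in PC FTAZ:PCBM replicates 1 to 4. Group means of this median were 0.64 ± 0.16 in PC FTAZ:PCBM, −0.002 ± 0.11 in PC FTAZ:IT-M, 0.02 ± 0.08 in PC PTB7-Th:IEICO-4F and 0.01 ± 0.13 in PC control (SD, n = 4 each). The other 3 groups therefore lay within their own spread of each other. Together the members took 1.45% ± 0.16 of all counts in PC FTAZ:PCBM, 0.904% ± 0.07 in PC FTAZ:IT-M, 0.937% ± 0.05 in PC PTB7-Th:IEICO-4F and 0.940% ± 0.09 in PC control (SD, n = 4 each). The group next highest to PC FTAZ:PCBM was PC PTB7-Th:IEICO-4F for 71 members, PC FTAZ:IT-M for 47 and PC control for 32. The gap between the lowest PC FTAZ:PCBM plant and the highest of the 12 others had a median of 0.11 and ran from 0.0001 to 0.69 on the log2 scale, so many members cleared the rule narrowly.

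**Figure D1:**
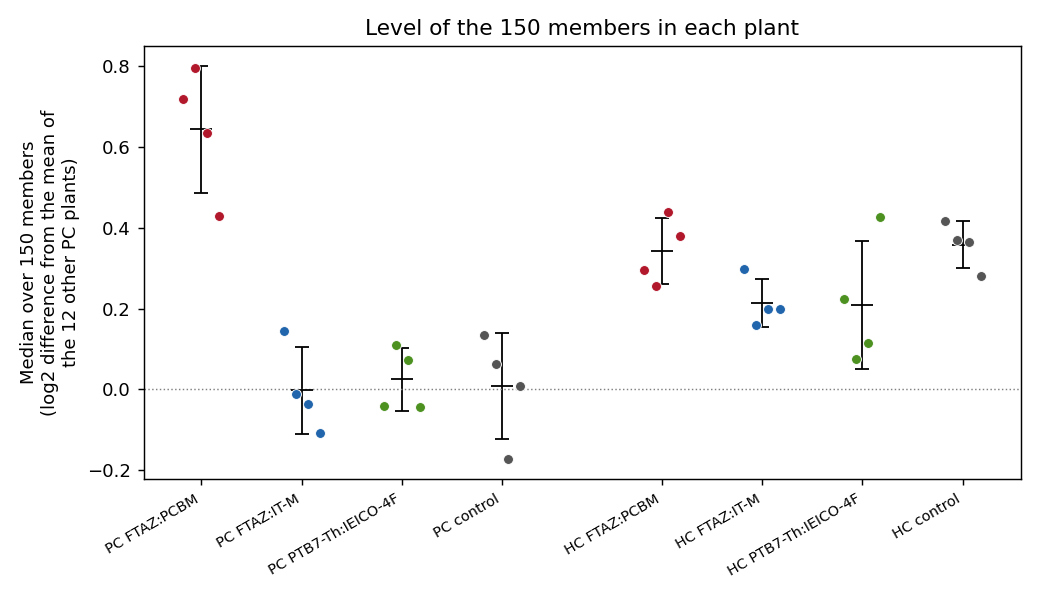
Median over the 150 members in each plant (points; log2 difference from the mean of the 12 PC plants without FTAZ:PCBM) in the 8 groups, with mean and SD of 4 plants (bars). The 4 PC FTAZ:PCBM plants sit between 0.43 and 0.79, the 12 other PC plants between −0.17 and 0.15, and the HC plants between 0.07 and 0.44.

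LOC111912424 had the largest difference of the members, 1.37. It lies on scaffold NW_019676327.1 from base 713140 to 714467 on the minus strand of Lsat_Salinas_v7 and has 1079 exonic bases in 4 exons. It had 13.9, 10.9, 15.2 and 12.7 CPM in PC FTAZ:PCBM plants and 3.37, 6.71, 6.71 and 6.37 CPM in PC control plants, with 4.71 to 5.94 CPM behind PC FTAZ:IT-M and 3.87 to 5.70 CPM behind PC PTB7-Th:IEICO-4F. The lowest PC FTAZ:PCBM plant thus stood well clear of the 12 others. LOC111899667, with a difference of 1.26, had 102, 114, 99.3 and 112 CPM in PC FTAZ:PCBM plants and 31.6, 54.0, 89.2 and 63.3 CPM in PC control plants. Here PC control spread widely, and its highest plant came close to the lowest PC FTAZ:PCBM plant.

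LOC111901378, at 1.17, had 1.32, 2.44, 3.09 and 1.99 CPM in PC FTAZ:PCBM plants and 1.11, 1.09, 0.87 and 0.79 CPM in PC control plants. Its lowest PC FTAZ:PCBM plant was only just above the highest PC FTAZ:IT-M plant, at 1.30 CPM. LOC111910373, at 1.16, had 3.17, 5.85, 3.53 and 3.31 CPM in PC FTAZ:PCBM plants and 1.31, 1.74, 1.94 and 1.76 CPM in PC control plants. Replicate 2 of PC FTAZ:PCBM stood above the rest of its group. LOC111900936, at 1.15, averaged 6.74 ± 1.40 CPM in PC FTAZ:PCBM and 2.94 ± 0.34 CPM in PC control, while PC FTAZ:IT-M was lower still at 2.25 ± 0.50 CPM (SD, n = 4 each). LOC111894462, a gene with 1 exon, averaged 4.15 ± 1.20 CPM in PC FTAZ:PCBM and 2.29 ± 0.42 CPM in PC control, with 1.41 ± 0.61 CPM in PC PTB7-Th:IEICO-4F (SD, n = 4 each). In none of these 4 genes did a PC FTAZ:PCBM plant overlap another PC group, as the rule required, but the margin was narrow in LOC111901378.

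LOC111879399 had 95.0, 87.6, 76.2 and 54.6 CPM in PC FTAZ:PCBM plants and 48.9, 44.0, 29.1 and 34.7 CPM in PC control plants. LOC111918005 had 201, 241, 266 and 200.03 CPM in PC FTAZ:PCBM plants and 107, 118, 92.3 and 116 CPM in PC control plants. Replicate 4 of PC FTAZ:PCBM was the lowest of its group in both genes. LOC111906634, the longest member at 14482 exonic bases, had 116, 97.3, 90.4 and 61.8 CPM in PC FTAZ:PCBM plants and 52.7, 45.2, 35.8 and 43.9 CPM in PC control plants. LOC111882643 lies on scaffold NW_019679917.1 from base 257105 to 264333 on the minus strand, with 13 exons, and had 121, 184, 219 and 185 CPM in PC FTAZ:PCBM plants and 69.9, 101, 103 and 94.7 CPM in PC control plants. In this gene replicate 1 was the low PC FTAZ:PCBM plant.

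**Figure D2:**
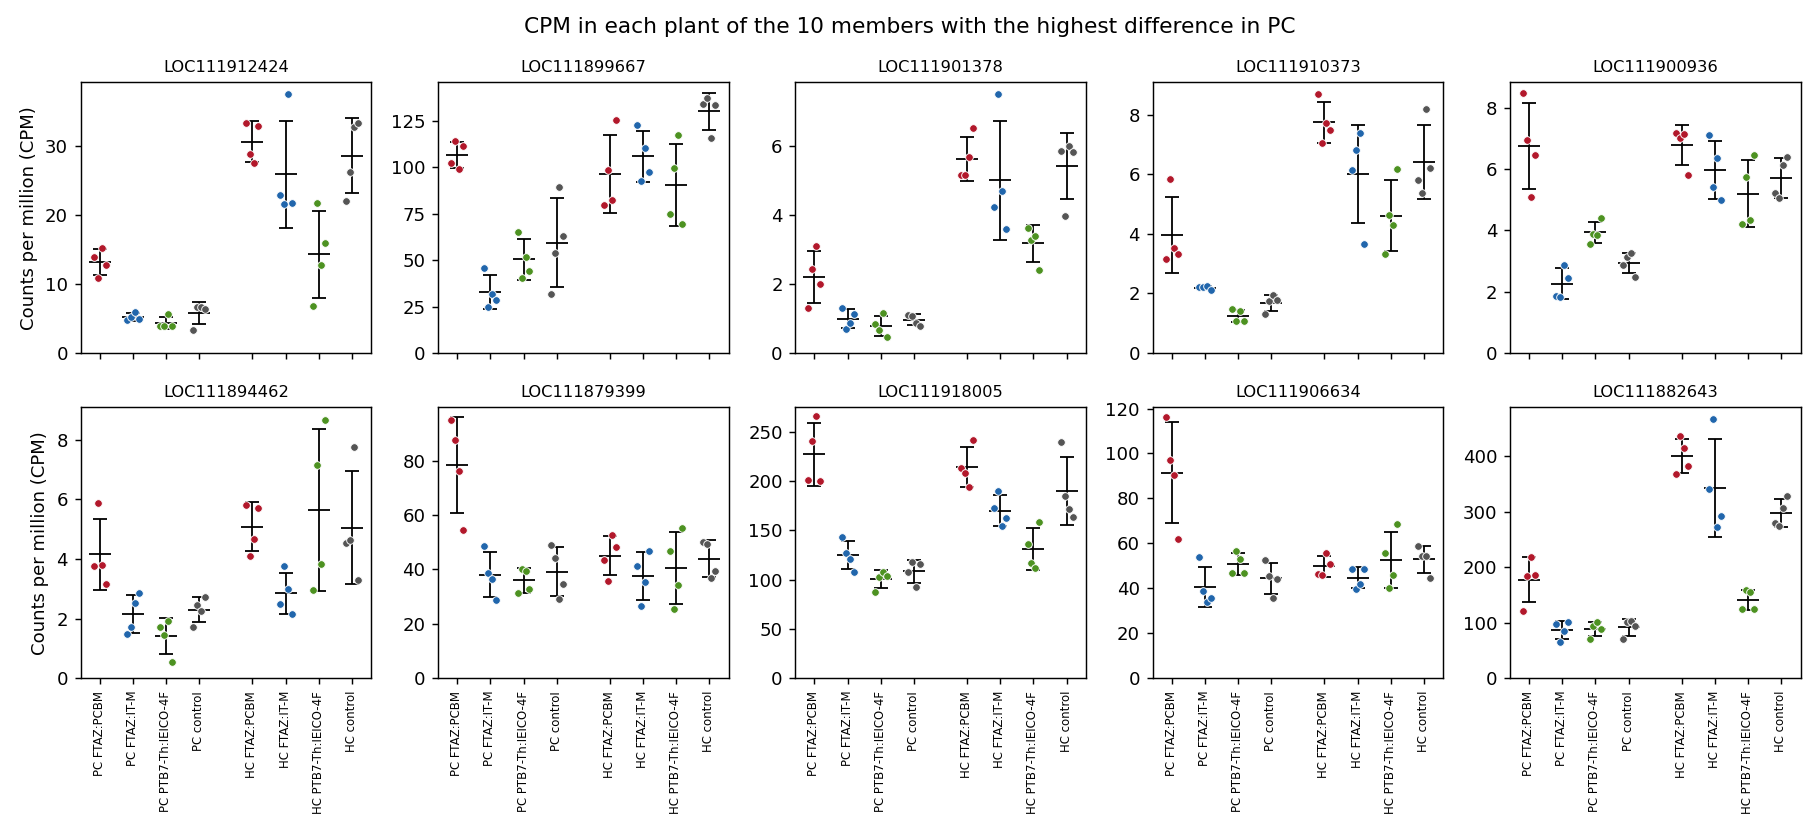
CPM of the 10 members with the largest PC difference, one panel a gene, in each of the 32 plants (points), with mean and SD of 4 plants (bars); each vertical axis starts at 0 and has its own scale. In PC every FTAZ:PCBM plant lies above the other covers, as the rule required; in HC the 4 groups overlap in most panels, and LOC111912424, LOC111901378, LOC111910373 and LOC111882643 are higher in HC FTAZ:PCBM than in PC FTAZ:PCBM plants.

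At the other end of the list, the last members inside were LOC111920618 at 0.5173, LOC111904298 at 0.5148 and LOC111903043 at 0.5129. The first genes outside were LOC111920050 at 0.5118, LOC111905144 at 0.5115 and LOC111920000 at 0.5109. The limit of 150 therefore cut through a continuous range, and 431 more genes met the rule below it. LOC111903043 averaged 10.3 ± 0.40 CPM in PC FTAZ:PCBM and 7.09 ± 1.07 CPM in PC control (SD, n = 4 each).

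By level, LOC111902198 stood first among the members. It had 1687, 2206, 1710 and 1638 CPM in PC FTAZ:PCBM plants and 1604, 1277, 1181 and 1373 CPM in PC control plants, so the highest control plant came within a few percent of the lowest FTAZ:PCBM plant. Scaled by exonic length, its mean over the PC plants was 624 CPM per kilobase, against 9.79 for the median member and 10.9 for the median eligible gene. LOC111877125 averaged 576 ± 55.6 CPM in PC FTAZ:PCBM and 371 ± 27.5 CPM in PC control, and LOC111921286 averaged 559 ± 74.1 CPM in PC FTAZ:PCBM and 386 ± 33.4 CPM in PC control (SD, n = 4 each). The members spanned 1.24 to 1371 CPM in their mean over the PC plants, with a median of 38.6 against 17.9 for the eligible genes. Per length the members were thus no more abundant than the eligible genes at the median.

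Many members were long genes. Exonic length, as the deposited tables give it for each gene, was not used by the rule. Its median over the members was 4170.5 bases, with a range of 122 to 14482, against 1643 bases for the eligible genes. Lengths over 3000 bases were found in 92 members (61.3%) and 11.6% of the eligible genes. Lengths over 6000 bases were found in 37 members (24.7%) and 0.763% of the eligible genes. Of all 581 genes that met the rule, the median was 3005 bases, below that of the members. Of 10 equal bins of the eligible genes by length, the last, from 3152 to 16570 bases, held 90 of the members (60%), and 13.2% of its genes met the rule. In the first, of up to 814 bases, 0.0985% met it.

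**Figure D3:**
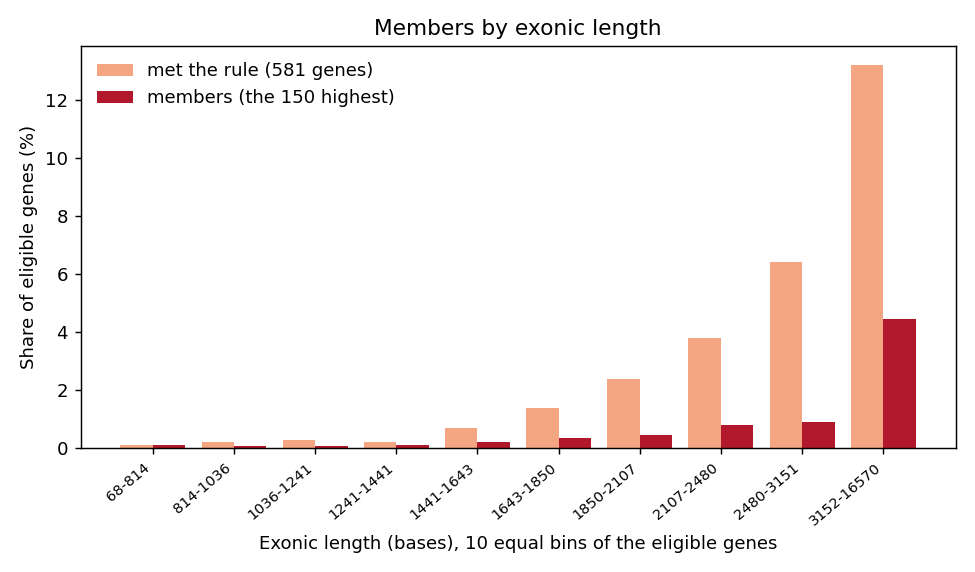
Share of eligible genes (%) that met the rule (pale bars) or were among the 150 members (dark bars), in 10 equal bins of the eligible genes by exonic length (bases). The share that met the rule is highest in the last bin, at 13.2%, and 0.0985% in the first.

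Members also had more exons, with a median of 8 merged exon blocks against 5, and spanned more of the genome, with a median of 6426 against 2698 bases. Both go with length: the longer 75 members had a median of 17 exon blocks and the shorter 75 a median of 3. The plus strand carried 81 members (54%) against 50.4% of the eligible genes, and 4 members (2.67%) overlapped another gene against 5.1%. A gene table of another lettuce assembly, Lsat_Salinas_v11, held 144 of the members (96%) and 97.9% of the eligible genes. All 144 were protein coding, against 93.6% of the eligible genes in that table.

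Among the members, LOC111906634 and LOC111913357 were the longest. LOC111913357, with 12139 exonic bases in 25 exons, had 318, 308, 280 and 191 CPM in PC FTAZ:PCBM plants and 170, 150, 114 and 141 CPM in PC control plants. In LOC111913357 and in LOC111906634 the 4 PC FTAZ:PCBM plants ranked as their length slopes did, with replicate 1 highest and replicate 4 lowest. LOC111886784, the next to shortest member, ranked in the same way, and LOC111880054, the shortest, did not. With 122 exonic bases, LOC111880054 had 3.83, 3.18, 4.83 and 3.54 CPM in PC FTAZ:PCBM plants and 1.56, 2.26, 2.06 and 2.95 CPM in PC control plants. LOC111886784, with 411 exonic bases, had 10.4, 8.52, 6.52 and 6.48 CPM in PC FTAZ:PCBM plants and 5.87, 5.72, 4.21 and 3.44 CPM in PC control plants. Neither of these short genes was in the table of the other assembly, so their type is not given.

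Members lay on 136 scaffolds, and 3 pairs were direct neighbours. LOC111920828 and LOC111920827 lie on scaffold NW_019678046.1, 73325 bases apart, and stood 0.91 and 0.69 above the other 3 PC groups. LOC111879399 and LOC111879425 lie 13791 bases apart on scaffold NW_019679049.1, with differences of 1.04 and 0.55. LOC111898847 and LOC111898845 lie 2563 bases apart on opposite strands of scaffold NW_019673078.1, with differences of 0.71 and 0.63 and exonic lengths of 10425 and 10460 bases. In this last pair the 4 PC FTAZ:PCBM plants ranked in the same order, 206, 185, 176 and 133 CPM in LOC111898847 and 89.4, 84.5, 77.6 and 60.3 CPM in LOC111898845. Whether any of these neighbours are near copies, whose shared reads would go uncounted, was not tested.

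The 4 PC FTAZ:PCBM plants were unequal. Replicate 2 was the highest of its group in 79 of the 150 members and replicate 4 the lowest in 111. The length slope was 0.20, 0.17, 0.12 and 0.03 in replicates 1 to 4, so the plant with the lowest members also had the lowest slope. Replicates 1 and 4 together gave a median difference of 0.58 over the members, and replicates 2 and 3, the libraries with a letter, gave 0.69. Without the lettered pair, a comparison chosen after the values were seen, 139 of the 150 members still met the rule. Leaving out plants cannot break the condition that all PC FTAZ:PCBM plants exceed the others, so this count is high by construction. Without replicate 4, 1282 genes met the rule, and 84 of the members stayed among the first 150. The part of the library letter in the members' levels was not tested.

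The rule was applied again after each sample's dependence on gene length had been removed with a smooth curve (lowess, span 0.5). In this setting 341 genes met the rule, 70 of the 150 members were among them, and 52 stayed among the first 150. The median difference of the members became 0.37, and 149 of them kept a difference above 0. The longer 75 members had a median difference of 0.19 in this setting, and the shorter 75 one of 0.59. Of the longer 75, 21 still met the rule, and of the shorter 75, 49 did. LOC111912424 had a difference of 1.495 with the length curve removed, LOC111910373 one of 1.14 and LOC111882643 one of 0.94, and all 3 still met the rule. LOC111906634 had 0.22, LOC111913357 0.20 and LOC111898847 0.07, and none of these long genes met it. What set the length dependence was not tested, and a pattern of length in PC FTAZ:PCBM was known from earlier results on these data.

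**Figure D4:**
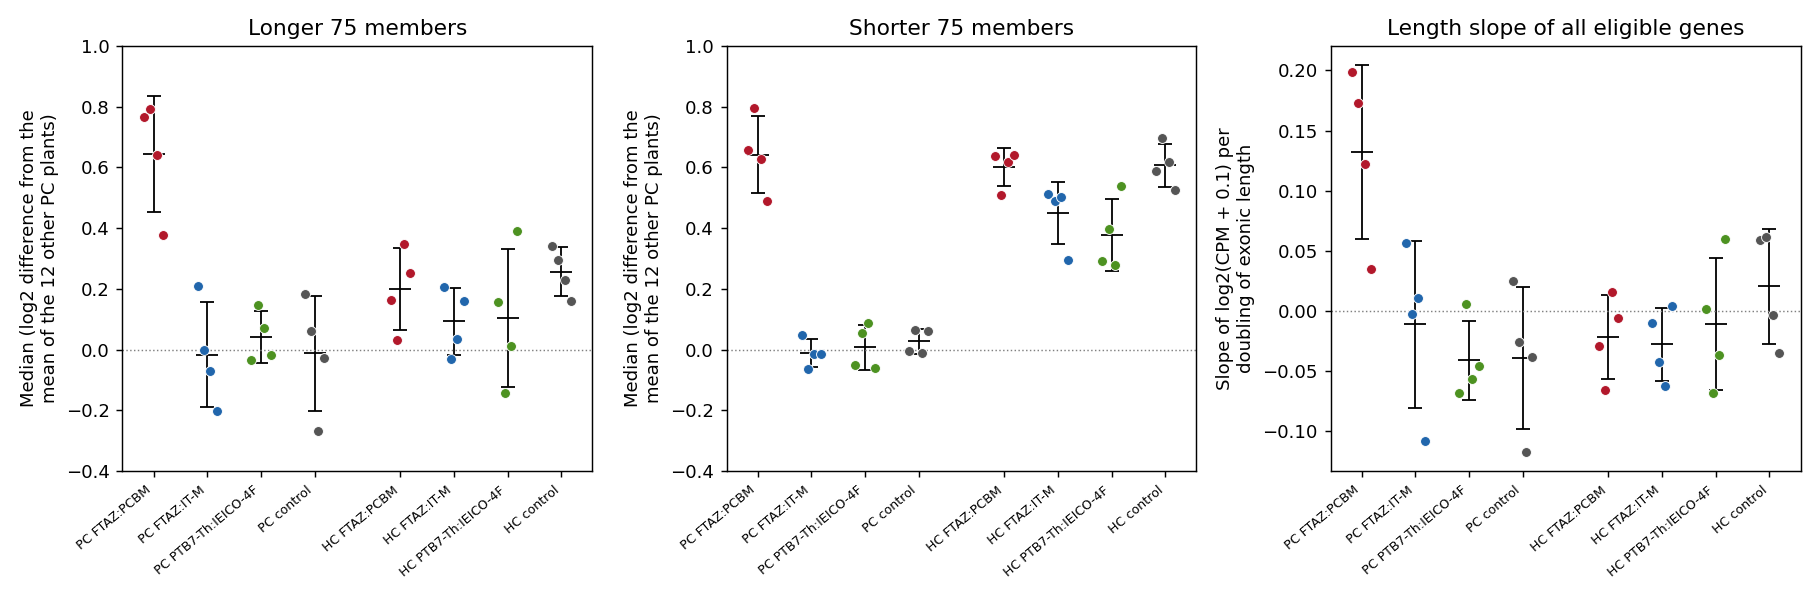
Median of the longer 75 members (left) and the shorter 75 members (middle) in each plant, as log2 difference from the mean of the 12 PC plants without FTAZ:PCBM, and slope of log2(CPM + 0.1) per doubling of exonic length over the eligible genes (right); points are plants, bars mean and SD of 4. Longer members were near 0.64 in PC FTAZ:PCBM and near 0.20 in HC FTAZ:PCBM; shorter members were near 0.64 and 0.60.

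In each HC group the members' median was above that of the 12 other PC plants, and the order of the groups differed from PC. Their median relative to those 12 plants was 0.34 ± 0.08 in HC FTAZ:PCBM, 0.21 ± 0.06 in HC FTAZ:IT-M, 0.21 ± 0.16 in HC PTB7-Th:IEICO-4F and 0.36 ± 0.06 in HC control (SD, n = 4 each). HC FTAZ:PCBM and HC control therefore lay within their spread of each other, and so did HC FTAZ:IT-M and HC PTB7-Th:IEICO-4F. For comparison, the mean over the 4 HC groups minus the mean of the 3 other PC groups had a median of 0.27 over the members and −0.05 over the eligible genes. Because the 12 PC plants helped to choose the members, this difference is a description.

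Shorter and longer members stood apart in HC. The shorter 75 had a median of 0.60 ± 0.06 in HC FTAZ:PCBM and 0.61 ± 0.07 in HC control, which is close to their 0.64 ± 0.13 in PC FTAZ:PCBM (SD, n = 4 each). The longer 75 had 0.20 ± 0.14 in HC FTAZ:PCBM and 0.26 ± 0.08 in HC control, against 0.64 ± 0.19 in PC FTAZ:PCBM (SD, n = 4 each). The mean of the HC groups reached or passed that of PC FTAZ:PCBM in 31 members, of which 30 were among the shorter 75. It lay between PC FTAZ:PCBM and the other 3 PC groups in 106 members and at or below those 3 groups in 13. Shares over the eligible genes are not given here, and the PC FTAZ:PCBM levels helped to choose the members. The length slope over the eligible genes was 0.13 ± 0.07 in PC FTAZ:PCBM, −0.02 ± 0.04 in HC FTAZ:PCBM and −0.03 ± 0.03 in HC FTAZ:IT-M. It was −0.01 ± 0.06 in HC PTB7-Th:IEICO-4F and 0.02 ± 0.05 in HC control (SD, n = 4 each). The part of this slope in the split by length was not tested. LOC111901378 is one of the 31, with 5.63 ± 0.64 CPM in HC FTAZ:PCBM and 5.42 ± 0.97 CPM in HC control, against 2.21 ± 0.75 CPM in PC FTAZ:PCBM (SD, n = 4 each). LOC111906634 is among the others, with 49.7 ± 4.57 CPM in HC FTAZ:PCBM and 52.9 ± 5.99 CPM in HC control, against 91.4 ± 22.6 CPM in PC FTAZ:PCBM (SD, n = 4 each).

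Whether the members were also highest behind FTAZ:PCBM without adjusted intensity was tested in HC, with edgeR's quasi-likelihood test on all 24483 genes with enough counts, all 150 members included, and Benjamini-Hochberg adjustment over all of them; a gene was called at an adjusted p under 0.05. The 16 HC plants had no part in ranking the members. The model's estimate of the spread, however, also used the PC plants, which chose the members. Against the mean of the other 3 HC groups, 3 of the 150 members (2%) were called in HC FTAZ:PCBM, and all 3 were higher there. Over all tested genes 0.429% were called, 0.139% as higher and 0.29% as lower. The fold change was above 0 in 106 members, with a median of 0.06 on the log2 scale against −0.002 over all tested genes. Most members thus showed no detectable difference in this contrast, and 19 of them (12.7%) had an unadjusted p under 0.05, against 10.3% of all tested genes. With only the 16 HC samples in the model, 2 members (1.33%) were called, against 0.193% of the genes tested there.

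LOC111882643 had 369, 437, 414 and 383 CPM in HC FTAZ:PCBM plants and 280, 275, 307 and 329 CPM in HC control plants. It had 340, 468, 272 and 292 CPM behind HC FTAZ:IT-M and 124, 158, 155 and 125 CPM behind HC PTB7-Th:IEICO-4F. HC FTAZ:PCBM plants lay above all plants of HC control and HC PTB7-Th:IEICO-4F, and 1 HC FTAZ:IT-M plant was higher than any of them. Its log2 fold change against the other 3 HC groups was 0.70 (SE 0.13), with an adjusted p of 0.0113 by edgeR. It was called in 22 of 23 alternative settings and not without HC FTAZ:PCBM replicate 2, and over them the adjusted p ranged from 0.00015 to 0.0676.

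LOC111914980, on scaffold NW_019676799.1 from base 272190 to 275478 on the minus strand, had 87.6, 106, 117 and 104 CPM in HC FTAZ:PCBM plants and 78.1, 89.1, 84.2 and 91.0 CPM in HC control plants. Behind HC PTB7-Th:IEICO-4F it had 43.5 to 56.4 CPM. The lowest HC FTAZ:PCBM plant overlapped HC control and HC FTAZ:IT-M, and none overlapped HC PTB7-Th:IEICO-4F. Its log2 fold change against the other 3 HC groups was 0.50 (SE 0.08), with an adjusted p of 0.00817 by edgeR, and it was called in all 23 alternative settings.

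LOC111899550, on scaffold NW_019673296.1 from base 2250333 to 2256255 on the plus strand, had 48.8, 48.9, 55.5 and 46.2 CPM in HC FTAZ:PCBM plants and 42.1, 38.2, 50.2 and 48.2 CPM in HC control plants. Behind HC PTB7-Th:IEICO-4F it had 29.1 to 37.6 CPM. HC FTAZ:PCBM plants overlapped HC control plants and lay above all HC PTB7-Th:IEICO-4F plants. Its log2 fold change against the other 3 HC groups was 0.33 (SE 0.07), with an adjusted p of 0.0357 by edgeR, and it was called in 13 of 23 alternative settings, whose adjusted p ranged from 0.00493 to 0.182. It was no longer called with the length curve removed (adjusted p 0.0558), with the replicate block (0.0514) or with only the 16 HC samples in the model (0.105). Nor was it called when any single HC FTAZ:PCBM plant was left out, or without HC FTAZ:IT-M replicate 4, HC PTB7-Th:IEICO-4F replicate 3 or HC control replicate 2. In each of the 3 called genes the lowest HC group was HC PTB7-Th:IEICO-4F, which is a part of the comparison.

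Set against the HC control alone, no member was called in HC FTAZ:PCBM. The count was 0 of 150 by edgeR and 0 by DESeq2, and 0.0327% of all tested genes were called. At an unadjusted p under 0.05 there were 8 members (5.33%), against 7.05% of all tested genes. The median log2 fold change was −0.005 over the members and −0.002 over all tested genes, and 80 members were below 0. With the length curve removed, 30 were below 0, and the median was 0.08 over the members and 0.02 over all tested genes. The members' median was also above 0 without HC FTAZ:PCBM replicate 2 (0.04), HC control replicate 1 (0.03) or HC control replicate 2 (0.004). In the tests the length curve was fitted to CPM before scaling between samples, and the scaling was then applied as well. Shifts of whole samples were thereby corrected again, so the sign of a median in that setting is not read. LOC111882643 had a log2 fold change of 0.45 (SE 0.16) and LOC111914980 one of 0.30 (SE 0.11) against HC control, and both had an adjusted p of 0.52 by edgeR. In PC, where the rule used the same contrast, all 150 members had a positive log2 fold change against PC control, with a median of 0.65. There 145 were called, against 15.7% of all tested genes, and nothing is read from that count.

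**Figure D5:**
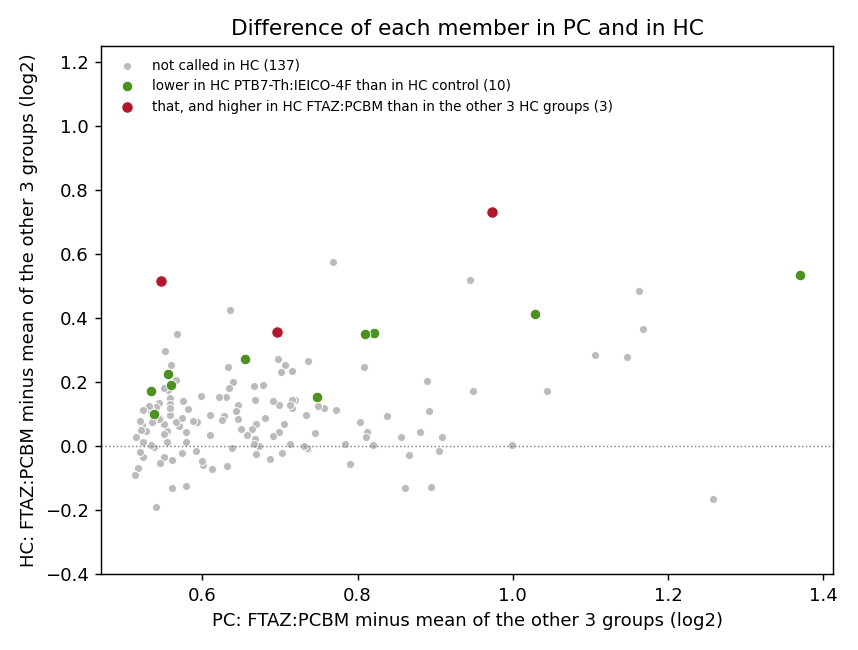
Difference of FTAZ:PCBM from the mean of the other 3 groups of its experiment for each member, in PC (horizontal) and in HC (vertical), both on the log2(CPM + 0.1) scale. All members are above 0.51 in PC by choice; in HC they run from −0.19 to 0.73, and the 13 members called in HC are coloured.

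On the scale of the rule, the HC difference of the members had a median of 0.09 and ran from −0.19 to 0.73, against a median of 0.01 over the eligible genes. It was above 0 in 120 members (80%) and in 55% of the eligible genes. It was 0.5 or more in 5 members (3.33%) and in 0.68% of the eligible genes. In no member did all 4 HC FTAZ:PCBM plants lie above the 12 other HC plants, which held for 0.148% of the eligible genes. The highest HC group was HC FTAZ:PCBM in 51 members (34%) and HC control in 75 (50%), against 25.2% and 33.5% of the eligible genes. The lowest was HC PTB7-Th:IEICO-4F in 79 members (52.7%) and HC FTAZ:IT-M in 66 (44%), against 38% and 31.4%.

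HC FTAZ:IT-M was set against the same HC control plants. No member was called there, 0 of 150 by edgeR and 0 by DESeq2, and 0% of all tested genes were called. At an unadjusted p under 0.05 there were 6 members (4%), against 7.14% of all tested genes. Log2 fold changes were below 0 in 120 of the 150 members, with a median of −0.09 over the members and 0.001 over all tested genes. With the length curve removed, 42 members were below 0 and their median was 0.06. The median over all tested genes also moved up, to 0.06, so the members no longer lay below it. The sign of the members' median is not read here, because this setting also shifted whole samples, as given above. The distance of the members' median from that of all tested genes did differ with the length curve removed.

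HC PTB7-Th:IEICO-4F, again against those HC control plants, gave the most calls. Of the 150 members 13 fell (8.67%) and 0 rose, while 3.83% of all tested genes were called, 1.57% as lower. Among the eligible genes 1.75% were called as lower. The median log2 fold change was −0.09 over the members and 0.006 over all tested genes, and 104 members were below 0. HC PTB7-Th:IEICO-4F replicate 4 was the highest of its group in 101 of the 150 members. Relative to the 12 other PC plants its member median was 0.43, against 0.07 to 0.22 in the rest of its group. Without this plant the median was −0.24 over the members and 0.004 over all tested genes, and 141 members were below 0. With single plants left out in turn, 87 to 141 members were below 0. With the length curve removed, 13 members were again called, but 9 were lower and 4 higher, and the median over the members was 0.02 against 0.06 over all tested genes. Over all tested genes 553 were called higher and 384 lower, and with the length curve removed 1149 and 234. The counts with the curve removed also carry the shift of whole samples in that setting. What length alone contributed to them was not tested. All 4 HC PTB7-Th:IEICO-4F plants lay below all 4 HC control plants in 24 members (16%) and in 6.52% of the eligible genes.

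LOC111882643 fell furthest of the 13, with 124, 158, 155 and 125 CPM in HC PTB7-Th:IEICO-4F plants against 280, 275, 307 and 329 CPM in HC control plants. The groups did not overlap, and on the log2 scale it was lower by a fold change of −1.03 (SE 0.17; adjusted p 0.00124 by edgeR). LOC111912424 had 6.74, 21.7, 12.7 and 16.0 CPM in HC PTB7-Th:IEICO-4F plants and 21.99, 26.2, 32.7 and 33.3 CPM in HC control plants, a log2 fold change of −0.92 (SE 0.25; adjusted p 0.0337 by edgeR). Its highest HC PTB7-Th:IEICO-4F plant nearly reached the lowest control plant. LOC111900405 had 3.46, 3.14, 1.90 and 2.70 CPM in HC PTB7-Th:IEICO-4F plants and 5.78, 4.66, 6.46 and 4.74 CPM in HC control plants, a log2 fold change of −0.89 (SE 0.20). LOC111919559, with 6526 exonic bases, had 12.3, 10.9, 7.54 and 8.72 CPM in HC PTB7-Th:IEICO-4F plants and 19.7, 18.6, 18.7 and 16.9 CPM in HC control plants, a log2 fold change of −0.85 (SE 0.16). Neither of these genes overlapped between the groups.

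LOC111886215 averaged 46.03 ± 11.5 CPM in HC PTB7-Th:IEICO-4F and 79.8 ± 11.9 CPM in HC control (SD, n = 4 each), and its log2 fold change was −0.75 (SE 0.17). Its HC PTB7-Th:IEICO-4F replicate 4 was far below the others. LOC111914980 fell by 0.69 on the log2 scale (SE 0.11). The smallest called changes were −0.57 in LOC111906495, −0.50 in LOC111916017, −0.48 in LOC111918005, −0.46 in LOC111914264 and −0.43 in LOC111899550. In LOC111918005 the groups came close without overlap: it had 137, 117, 112 and 158 CPM in HC PTB7-Th:IEICO-4F plants and 240, 185, 171 and 164 CPM in HC control plants, and it was called in 11 of 23 alternative settings. All 3 members called higher in HC FTAZ:PCBM are among these 13, and both comparisons use the HC PTB7-Th:IEICO-4F plants. The number of members called was 7 (4.67%) without HC PTB7-Th:IEICO-4F replicate 3, against 1.26% of the genes tested there. Without HC control replicate 1 it was 7 (4.67%), against 1.41%. Without HC control replicate 3 it was 5 (3.33%), against 0.974%. Without HC PTB7-Th:IEICO-4F replicate 2 or 4 it was 16 (10.7%), against 4.56% and 2.47%. With only the 16 HC samples in the model it was 9 (6%), against 2.12% of the genes tested there.

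In PC, where the rule used the plants, the other filters set against PC control gave few calls among the members. PC FTAZ:IT-M had 4, against 7.26% of all tested genes, and PC PTB7-Th:IEICO-4F had 1, against 3.35%. Nothing is read from these counts.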

How the data were processed

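Leaf RNA of 32 lettuce plants in 8 groups of 4 was sequenced after poly-A selection, per the labels' protocols. Per gene, the authors deposited unscaled read counts from featureCounts 2.0.1 over exons of the RefSeq annotation of Lsat_Salinas_v7, per the file headers, which show no option for strand, multi-mapping reads or read pairs. With those defaults a read in several places goes uncounted, so near-identical genes are undercounted. FastQC, HISAT2 and DESeq2 are also listed in the submitters' processing notes. The deposited Length column is the exonic length in bases.

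CPM is a gene's count divided by the sample's total count, times 1000000. The members follow the rule given at the opening, with a pseudocount of 0.1. Tests used edgeR 4.0.16 (limma 3.58.1, R 4.3.3): filterByExpr by group (minimum count 10, minimum total 15), TMM scaling, 1 model with a mean for each of the 8 groups and no covariate, and the quasi-likelihood F-test with Benjamini-Hochberg adjustment over the 24483 genes tested. A standard error is the fold change divided by the square root of F. Alternatives were DESeq2's size factors, DESeq2 1.42.0's Wald test, other filters and pseudocounts, only the 16 HC samples, the replicate number as a block, a lowess curve on gene length (span 0.5) and leaving out each replicate. In the edgeR fits with the length curve, the curve was fitted to CPM without TMM factors, which were then applied too. The scripts were tested on simulated data, without the length curve. Tables were joined in Python 3.11.15 with pandas 2.3.3.

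Members, lists and tests were chosen with earlier results of these data known. The named genes are the 10 members with the largest difference, 3 on each side of the limit, members called in a HC comparison (beyond 10, the 5 largest and 5 smallest fold changes), the 3 with most counts, the 2 longest and 2 shortest, and direct neighbours. Lists by product name, cell type markers and promoter motifs were not used here, as neither the files nor the gene table pairs identifiers with product names or sequences; the labelled tissue was therefore not checked against markers. None of the coordinates of Lsat_Salinas_v11 were used.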

Additional observations from a re-analysis of the deposited data

Results flagged for a closer look

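Among 272 combinations of a named member or summary and a group of 4 plants, 20 had 1 plant far from the other 3, where about 13.6 would be so by chance (1 in 20). In PC FTAZ:PCBM, replicate 2 was far above the others in 4 genes: LOC111910373 at 5.85 CPM (others 3.17 to 3.53), LOC111916017 at 47.7 CPM (others 30.9 to 33.0), LOC111914264 at 45.9 CPM (others 34.5 to 35.7) and LOC111902198 at 2206 CPM (others 1638 to 1710). This library is one of the lettered pair.

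In the other PC groups the plants that stood apart were spread over several replicates. Behind PC FTAZ:IT-M, LOC111886784 was low in replicate 3 at 2.07 CPM (others 4.57 to 4.89) and LOC111879425 low in replicate 4 at 1.79 CPM (others 1.96 to 1.99). Behind PC PTB7-Th:IEICO-4F, LOC111912424 was high in replicate 3 at 5.70 CPM (others 3.87 to 3.96), LOC111903043 low in replicate 4 at 5.26 CPM (others 6.36 to 6.58) and LOC111914980 low in replicate 1 at 35.4 CPM (others 48.2 to 49.9). In PC control, LOC111912424 was low in replicate 1 at 3.37 CPM (others 6.37 to 6.71).

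In HC FTAZ:PCBM, LOC111900936 was low in replicate 4 at 5.80 CPM (others 6.9995 to 7.17), LOC111877125 high in replicate 3 at 654 CPM (others 547 to 554), LOC111880054 low in replicate 3 at 2.86 CPM (others 3.21 to 3.28) and LOC111879425 high in replicate 2 at 2.45 CPM (others 2.30 to 2.32). Behind HC FTAZ:IT-M, replicate 3 was high in LOC111912424 at 37.5 CPM (others 21.5 to 22.9) and low in LOC111886215 at 52.4 CPM (others 88.4 to 92.2). Behind HC PTB7-Th:IEICO-4F, LOC111886215 was low in replicate 4 at 28.9 CPM (others 50.3 to 54.5). In HC control, LOC111899667 was low in replicate 3 at 115.7 CPM (others 134 to 137), LOC111901378 low in replicate 2 at 3.97 CPM (others 5.83 to 6.003) and LOC111903043 high in replicate 1 at 13.9 CPM (others 9.93 to 10.5).

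In LOC111903043 and LOC111879425 all 4 FTAZ:PCBM plants lay above all control plants in PC, as the rule required, and below all control plants in HC. LOC111903043 averaged 8.97 CPM in HC FTAZ:PCBM and 11.1 CPM in HC control, and LOC111879425 averaged 2.35 CPM in HC FTAZ:PCBM and 2.61 CPM in HC control. The difference between the experiments was not tested, because the PC plants chose these genes.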

How the results depend on the processing

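Values past 1.5 times the reported ones were as follows, and where no construction shows it the cause was not tested. With the length curve removed, 341 genes met the rule (581 without it), 52 members stayed among the first 150, 70 members still met the rule, the median length of the new first 150 was 1724.5 bases, and 3 genes were called in HC FTAZ:PCBM against HC control (8 as reported). With only the 16 HC samples in the model, calls over all genes were 46 for HC FTAZ:PCBM against the other 3 HC groups (105 as reported), 4 for HC FTAZ:PCBM against HC control and 506 for HC PTB7-Th:IEICO-4F against HC control (937 as reported). DESeq2's Wald test called 299 genes (1.22%) and 6 members (4%), 29 genes, and 1448 genes in the same 3 comparisons. It called 23 genes in HC FTAZ:IT-M against HC control (0 as reported). In no comparison did all same-numbered plants deviate together, with correlations of −0.18 to 0.09, −0.15 to 0.21 and −0.17 to 0.01. With 4 pairs a comparison, these values cannot settle whether the numbers pair the plants. With the replicate block, 1 gene was called in HC FTAZ:IT-M. In that setting 2 members (1.33%) were called in HC FTAZ:PCBM against the other 3, against 0.331% of all tested genes. In HC PTB7-Th:IEICO-4F 11 members (7.33%) were called, against 3.6%. Leaving out 1 plant at a time gave 570 to 1282 genes meeting the rule, 84 to 146 members kept, 145 to 150 members still meeting it, median lengths of 2855 to 4883.5 bases and HC median differences of 0.06 to 0.11. The calls then ranged from 13 to 140 genes and 1 to 4 members in HC FTAZ:PCBM against the other 3, with 13 genes and 1 member without HC FTAZ:PCBM replicate 2. They ranged from 0 to 22 genes in HC FTAZ:PCBM, 0 to 4 in HC FTAZ:IT-M, with 0 members in both, and 240 to 1125 genes and 5 to 16 members in HC PTB7-Th:IEICO-4F, each against HC control. Members below 0 then numbered 110 to 124 in HC FTAZ:IT-M, 87 to 141 in HC PTB7-Th:IEICO-4F and 52 to 100 in HC FTAZ:PCBM. Without the 2 lettered libraries, chosen after seeing the data, 732 genes met the rule, 105 members were kept and the median length was 3200 bases. None of the 13 calls of a named member followed through these alternatives reversed its sign. The members' medians against HC control turned above 0 with the length curve removed, and in HC FTAZ:PCBM also without 3 single plants, as the report gives. With the curve removed the medians over all tested genes were above 0 too. They were 0.02 in HC FTAZ:PCBM, 0.06 in HC FTAZ:IT-M and 0.06 in HC PTB7-Th:IEICO-4F, where the members' median of 0.02 stayed below it. That setting also shifted whole samples, so the turn of sign is not read as an effect of length. Members that still meet the rule were counted after seeing the data. Leaving out plants cannot break the condition that all PC FTAZ:PCBM plants exceed the others, so such counts stay high by construction. The lowest count of a member was 23, and 4 plants a group limit what can be called.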
